A study of Homo sapiens with 60 samples.

Results

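The 9 genes described here encode translation elongation factors and other proteins whose mRNAs are known as TOP mRNAs. The genes are EEF1A1, EEF1B2, EEF1D, EEF1G, EEF2, TPT1, PABPC1, EIF4B and NAP1L1. They were chosen by symbol, by a rule that used no measured value but was set with earlier results of these data known. They are 9 of the 60590 gene rows used. Of these, 8 passed the filter on low counts and are among the 23681 genes tested, and EEF1G did not. A TOP mRNA starts with a C followed by a run of pyrimidines, the terminal oligopyrimidine motif, and translation of these mRNAs is switched together with growth signalling through mTOR and the cap-binding protein LARP1. EEF1A1 carries aminoacyl-tRNA to the ribosome, the complex of EEF1B2, EEF1D and EEF1G exchanges its GDP for GTP, and EEF2 moves the ribosome along the mRNA. These mRNAs are known to be abundant, stable and mainly cytoplasmic in growing cells, where ribosomes translate them.

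The peroxidase APEX2 was used to biotinylate molecules near a bait, and labelled RNA was pulled down from Flp-In HEK293 cells (an established line from human embryonic kidney). Cells stably carried a FLAG-APEX2 fusion to SRSF7, SRSF1 or RNPS1 (nuclear speckles), SAM68 (an RNA-binding protein, gene KHDRBS1), PML or SP100 (PML bodies), SMN2 or WRAP53 (gems and Cajal bodies), NPAT (histone locus bodies), FBL (nucleolus) or LMNA (nuclear lamina), or carried the reference constructs NLS, GFP and FLAG. All constructs, the references included, were FLAG-APEX2 tagged, and all groups shared the same treatment: 24 hours after plating, cells received 500 µM biotin-phenol for 30 minutes and then 1 mM hydrogen peroxide for 1 minute, and the reaction was quenched with Trolox, ascorbate and azide. Each construct had 2 streptavidin pulldowns and 2 inputs (RNA before pulldown), all ribosome-depleted, for 56 libraries in 28 groups. SRSF7 pulldown RNA was also sequenced in 4 libraries of a separate table, 2 after poly(A) selection and 2 after ribosome depletion. The labels do not say whether a line is 1 clone or whether replicates are separate cultures, so each p-value reflects only how far these libraries spread, which may be technical.

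The start sites show which of these genes carry the motif that names the group. The windows are RefSeq sequences of GRCh38.p14, 5′ to 3′ on the transcribed strand, with 15 bases before the annotated start and 15 from it, and capitals mark the unbroken run of C or T that begins at the start. Windows of 7 of the 9 genes were used, with 2 annotated starts for EEF1B2. No window of EEF1D or PABPC1 was used. The count of member windows below therefore says nothing about the starts of these 2 genes and is not a share of the whole group.
EEF1A1, minus strand, chr6:73521018-73521047: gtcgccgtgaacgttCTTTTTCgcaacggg
EEF1B2, plus strand, chr2:206159594-206159623: gccggaagtggccccagcctcgaggccggg
EEF1B2, plus strand, chr2:206159880-206159909: ccggtctcttcgggtCCTTTTTCCTCTCTT
EEF1G, minus strand, chr11:62573877-62573906: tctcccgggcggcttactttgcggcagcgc
EEF2, minus strand, chr19:3985449-3985478: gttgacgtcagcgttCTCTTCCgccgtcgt
TPT1, minus strand, chr13:45341169-45341198: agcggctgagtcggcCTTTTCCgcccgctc
EIF4B, plus strand, chr12:53006441-53006470: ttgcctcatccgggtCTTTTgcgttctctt
NAP1L1, minus strand, chr12:76084671-76084700: ggcgggctcttgggtCTTTTTTagcgccat
A C at the annotated start followed by at least 4 more pyrimidines (C or T, read on the transcribed strand only) was present in 6 of these 8 windows and in 1429 of all 35116 promoter windows, or 4.07%. EEF1A1, EEF2, TPT1 and NAP1L1 each have a run of 7 pyrimidines. The run of EIF4B is 5, and that of the second EEF1B2 start is 16 and continues past the end of the printed window. A match describes letters at an annotated start and not the 5′ ends of the RNA in these cells.

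Total counts were 14038645 to 56256915 in the 28 inputs, 19280434 to 42097988 in the 28 pulldowns and 23522548 to 30511742 in the second table. The HEK293 markers NEFL, INA, VIM, PAX2 and GATA3 had input medians of 19.4 to 827 CPM (read counts relative to library size, scaled by TMM), whereas NEFM stayed at 0.671 CPM or less. Among markers of other cells, PTPRC, CD3E, ALB and APOA1 reached at most 0.385 CPM, while MYH7 and ACTA1 reached 18.1 and 8.6 CPM and RBFOX3 and SYP ranged from 10.1 to 56.5 CPM. In 10 of 11 lines the bait gene was 1.95 to 10500 times the median of the other inputs. The largest fold, of SP100, rests on a median of 0.144 CPM. SMN2 (22.3 against 7.16 CPM) was not above every other input in both of its own inputs. The line labelled SRSF1 was the exception (0.579 against 0.843 CPM), and at this level the row cannot check the label. Counts at the pseudogenes RPS14P8 and RPS3AP21 divided the libraries into 3 sets that cut across the design. Set I, with 395 to 1078 counts at RPS14P8, held the 16 inputs of RNPS1, SAM68, SP100, SMN2, WRAP53, NPAT, FBL and GFP. Set II, with 1 to 15 counts there, held the other 12 inputs and 24 pulldowns. Set III, with 0 or 1 count at RPS3AP21, held the second table and the pulldowns of LMNA and GFP. Pulldown and input lay in the same set only for SRSF7, SRSF1, PML, NLS and FLAG, and for LMNA and GFP pulldown and set cannot be told apart because no input lies in set III. FBL input 1 and NPAT input 1 stood apart from the other inputs, with 2289 and 932 of 12231 expressed genes more than 2-fold from the median input. SRSF1 inputs 1 and 2 followed with 648 and 480 such genes, and the others had at most 101.

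EEF1G, the gamma subunit that anchors the exchange complex, could not be followed. Its row (chr11:62559596-62573891) held 0 to 4 reads per library, 35 in all, was at 0 in 38 of 56 libraries, and held no read in the second table. The row of its neighbour TUT1 (chr11:62575052-62591523) was at 0 in 48 of 56 libraries. With at most 4 reads against 1537 or more for every other member, nothing is said about the level of this mRNA.

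Of the 112 pairs of a tested member and a construct, 57 differed between pulldown and own input, 49 of them lower and 8 higher in the pulldown (edgeR's quasi-likelihood test over all 56 libraries, Benjamini-Hochberg adjusted p under 0.05 over 23681 genes, as in all calls below). The members were mostly lower in the pulldowns of the speckle proteins, LMNA and GFP, and mostly not called with SMN2, WRAP53 and FLAG. With SRSF7, 7 of 8 members were lower, against 19.8% of all genes, and 1 was higher, against 20.5%. With SRSF1, 7 were lower (22.5% of all genes) and 0 higher (28.5%). With RNPS1, 6 were lower (17.9%) and 0 higher (16.6%). With LMNA, 7 were lower (27.6%) and 0 higher (28.1%), and with GFP likewise 7 (27%) and 0 (26.4%). The member medians in these comparisons were -0.79, -1.32, -0.92, -1.29 and -1.05 on the log2 scale, beside medians over all genes of 0.17, 0.28, 0.16, 0.10 and 0.09. For LMNA and GFP, bait and library set cannot be told apart. SRSF7 pulldown RNA after ribosome depletion was in set II in the first table and set III in the second, each scaled on its own. Of EEF1A1 it held 1744 and 2611 CPM in set II and 981 and 810 CPM in set III. EEF2 held 1946 and 2180 against 947 and 831 CPM. EEF1D held 561 and 438 against 196 and 174 CPM. NAP1L1 was higher in set III (266 and 329 against 538 and 598 CPM), and PABPC1 overlapped. The cause was not tested. In bulk RNA, a lower level in fewer cells and a lower level in every cell cannot be told apart.

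Fewer members were called in the other constructs. NPAT had 4 members lower (23.4% of all genes) and 0 higher (23%), FBL 4 lower (20.8%) and 0 higher (16.2%), and NLS 2 lower (14.5%) and 0 higher (8.09%). SAM68 had 2 members higher (21.1%) and 2 lower (22%), PML 2 higher (9.92%) and 2 lower (15.1%), SP100 2 higher (11.4%) and 1 lower (16.5%), and SMN2 1 higher (4.65%) and 0 lower (10.5%). WRAP53 had 0 higher (10.7%) and 0 lower (9.25%), as did FLAG (1.72% and 9.21%). Their member medians lay between -0.29 for FBL and 0.33 for PML. Where edgeR called 0 members higher, in 9 constructs, 1 had an unadjusted p under 0.05 and DESeq2 also called 1. Where it called 0 lower, in SMN2, WRAP53 and FLAG, 4 had an unadjusted p under 0.05 and DESeq2 called 0. Against all inputs of set II, EEF2 was called lower in each of these constructs, as given below.

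**Figure D1:**
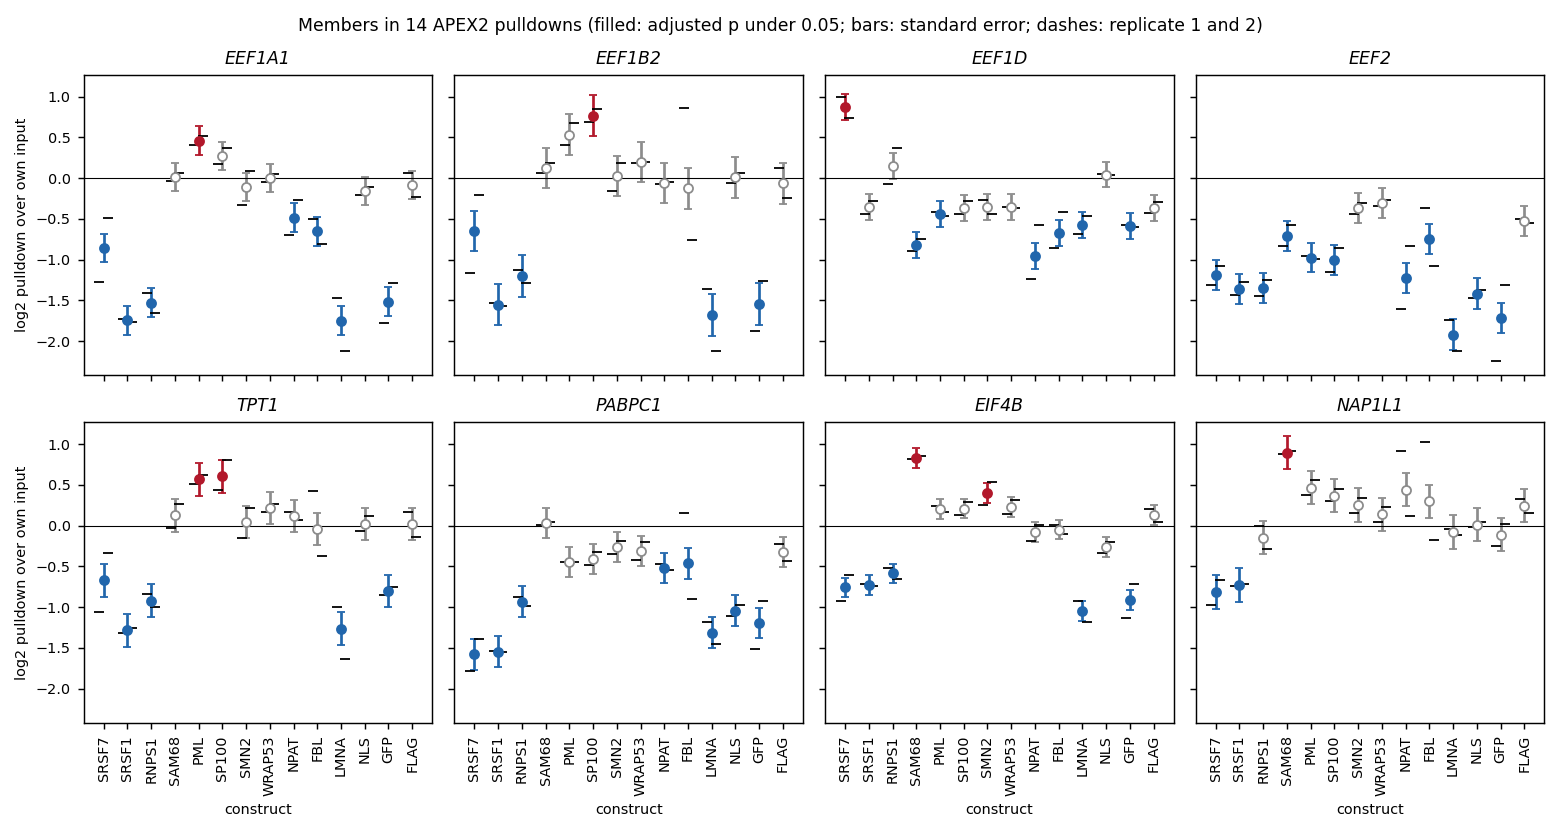
Log2 pulldown over own input (vertical axis) of the 8 tested members in 14 constructs (horizontal axis). Circles are the fitted values with their standard errors, filled where the adjusted p is under 0.05 (red higher, blue lower), and dashes are replicates 1 and 2; EEF2 is below 0 in all 14 constructs, from -1.92 with LMNA to -0.30 with WRAP53, and EEF1D stands highest with SRSF7, at 0.88.

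EEF2, the translocation factor, was the member that was lower across the widest range of constructs. Its level ran from 2707 to 5799 CPM in the 28 inputs, with a median of 4112, and from 1003 to 3037 CPM in the pulldowns, with a median of 1977. In each of the 14 constructs both pulldowns lay below both inputs, an outcome that 26.4% to 37.6% of all genes showed in a given construct. The 2 NLS inputs held 4468 and 4624 CPM and the 2 NLS pulldowns 1618 and 1789 CPM. This gave a log2 difference of -1.42 ± 0.19 (SE, n = 2 pulldowns and 2 inputs, edgeR adjusted p = 2.55e-07). Each SE, here and below, uses a spread shared by all groups of the fit, and n counts the libraries compared. EEF2 fell in 11 constructs, most with LMNA (-1.92 ± 0.19, edgeR adjusted p = 1.09e-10) and GFP (-1.71 ± 0.19, edgeR adjusted p = 1.46e-09), and least of the 11 with SAM68 (-0.71 ± 0.18). FLAG (-0.53), SMN2 (-0.37) and WRAP53 (-0.30) did not pass the threshold. Against all inputs of set II, however, EEF2 was called lower with FLAG (-0.69), SMN2 (-0.68) and WRAP53 (-0.61). In order, the levels of change ran from LMNA through GFP, NLS, SRSF1, RNPS1, NPAT, SRSF7, SP100, PML, FBL, SAM68, FLAG and SMN2 to WRAP53, and no step between neighbours exceeded 0.30, while each value had a standard error of 0.18 to 0.19. FBL input 1 held 2707 CPM, the lowest of all inputs, and FBL input 2 held 4065 CPM. The call with FBL was lost without FBL input 2 (-0.35), and the value was -1.14 against the inputs of set II.

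EEF1A1, which delivers aminoacyl-tRNA, changed in both directions. It ranged from 2465 to 4750 CPM in the inputs and from 847 to 4387 CPM in the pulldowns. With SRSF1 the inputs held 4750 and 4694 CPM and the pulldowns 1432 and 1383 CPM. That is a log2 difference of -1.75 ± 0.18 (SE, n = 2 and 2; edgeR adjusted p = 2.15e-10), with both pulldowns far below both inputs. These inputs, which stood apart from most others, had the highest EEF1A1 of all 28, and against all inputs of set II the value was -1.33, still called. LMNA (-1.75), RNPS1 (-1.53), GFP (-1.51) and SRSF7 (-0.86) also had lower EEF1A1, as did FBL (-0.65) and NPAT (-0.48). With SRSF7 the pulldowns differed from each other (1744 and 2611 CPM), and both were below the inputs (4231 and 3672 CPM). Both pulldowns lay below both inputs in 33% of all genes with SRSF1 and in 33% with SRSF7. PML was the exception: its pulldowns held 4387 and 4293 CPM against inputs of 3314 and 2996 CPM, a rise of 0.46 ± 0.17 that just passed (edgeR adjusted p = 0.0485). The PML call was lost when any of the 4 PML libraries was left out (0.38 to 0.55, lowest adjusted p 0.12) and against all inputs of its library set (0.30, adjusted p = 0.0578). The NPAT call was lost without NPAT input 1 (-0.36), NPAT pulldown 1 (-0.30) or NPAT pulldown 2 (-0.51), with DESeq2 size factors (-0.41) and with total counts (-0.33), and the FBL call without FBL input 2 (-0.47) or FBL pulldown 2 (-0.57).

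EEF1B2, the beta subunit that catalyses nucleotide exchange, followed EEF1A1 in the speckle, LMNA and GFP pulldowns. It ranged from 85.9 to 330 CPM in the inputs and from 53.6 to 327 CPM in the pulldowns. LMNA pulldowns held 98.4 and 53.6 CPM against inputs of 254 and 234 CPM. The log2 difference was -1.68 ± 0.26 (SE, n = 2 and 2; edgeR adjusted p = 7.45e-07), with the libraries apart although the 2 pulldowns differed. With LMNA, 37% of all genes had both pulldowns below both inputs. SRSF1 (-1.55), GFP (-1.54), RNPS1 (-1.20) and SRSF7 (-0.65) also had lower EEF1B2. SP100 was higher: its pulldowns held 315 and 276 CPM and its inputs 195 and 153 CPM, a rise of 0.76 ± 0.25 (edgeR adjusted p = 0.0203). That rise was lost without SP100 input 1 (0.93, adjusted p = 0.053), SP100 input 2 (0.58) or SP100 pulldown 1 (0.66), and against the inputs of the same library set (0.30, adjusted p = 0.18). The SRSF7 difference was lost without SRSF7 input 1 (-0.58) or SRSF7 pulldown 1 (-0.37), was -1.13 without SRSF7 pulldown 2, and was lost with total counts (-0.40) or a mean of 5 CPM (-0.45). In FBL, whose inputs held 85.9 and 235 CPM, no difference was called (-0.12), but EEF1B2 was 0.86 higher without FBL input 2 (adjusted p = 0.00379) and lower without FBL input 1 (-0.66, adjusted p = 0.0467) or against the inputs of set II (-0.71).

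EEF1D, the delta subunit of the same exchange complex, did not follow EEF1B2. SRSF7 pulldowns held 561 and 438 CPM, the 2 highest of the 28 pulldowns, against inputs of 281 and 263 CPM. EEF1D rose by 0.88 ± 0.16 on the log2 scale, to 1.84 times its input (SE, n = 2 and 2; edgeR adjusted p = 2.76e-05), while the other 7 members fell in the same libraries. This call held under each of the 13 alternatives run for it, between 0.64 and 1.13. None of these used the second table, which was scaled on its own. Its ribosome-depleted SRSF7 pulldown libraries, in set III, held 196 and 174 CPM of EEF1D, below the SRSF7 inputs given here. The cause was not tested. RNPS1 pulldowns held 359 and 422 CPM and overlapped their inputs (378 and 328 CPM), and the SRSF1 pulldowns (212 and 227 CPM) were below theirs (288 and 275 CPM) with no call (-0.36 ± 0.16, adjusted p = 0.0581), though a call was made against all inputs of set II (-0.54). EEF1D was lower with NPAT (-0.95), SAM68 (-0.82), FBL (-0.67), GFP (-0.58), LMNA (-0.58) and PML (-0.44). The SAM68 libraries were clear: pulldowns of 194 and 195 CPM against inputs of 360 and 326 CPM. NPAT input 1 and FBL input 1 held 517 and 524 CPM of EEF1D, above the 399 CPM reached by any other input. Without NPAT input 1 the NPAT difference was -0.50 (adjusted p = 0.0145), and without FBL input 1 the FBL difference was -0.29 and no longer called. Against the inputs of set II the 2 values were -0.61, still called, and -0.24, not called. The LMNA call was lost without LMNA pulldown 2 (-0.47), and the PML call without any of the 4 PML libraries (-0.48 to -0.43) and under DESeq2 (-0.36), total counts (-0.36) or a mean of 5 CPM (-0.39).

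**Figure D2:**
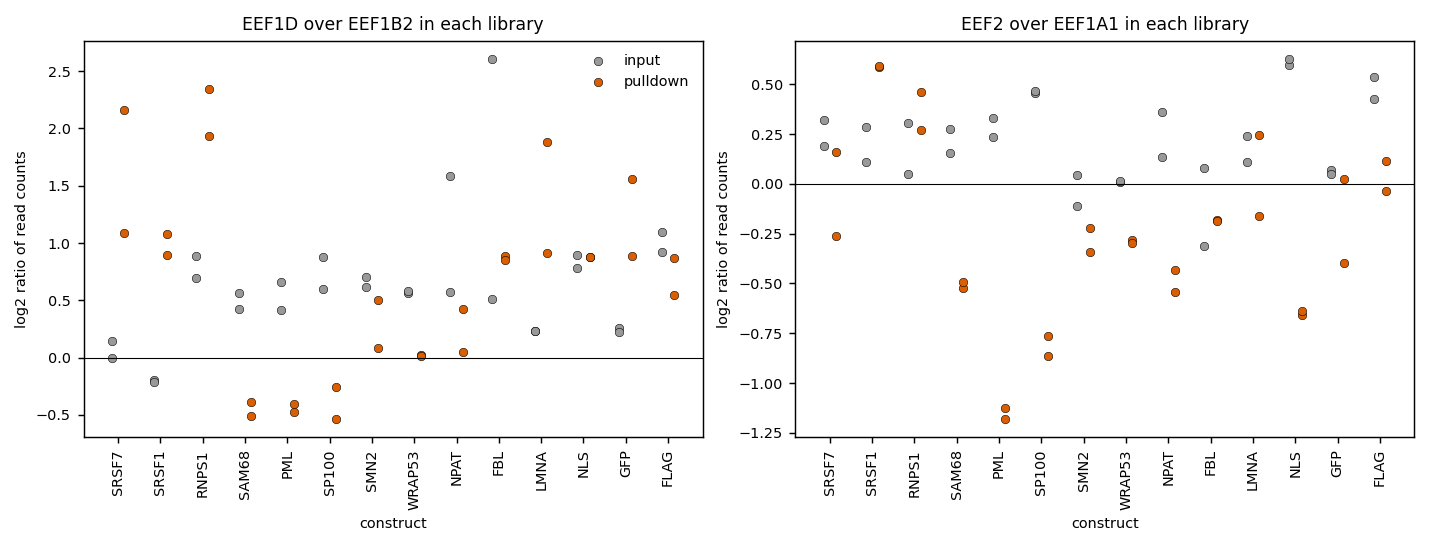
Log2 ratio of read counts within each library (vertical axis) for EEF1D over EEF1B2 (left) and EEF2 over EEF1A1 (right), by construct (horizontal axis); grey points are inputs and orange points pulldowns, 2 of each. EEF1D over EEF1B2 is above the inputs in 5 constructs and below them in 7, and the FBL input at 2.61 is FBL input 1.

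Ratios of reads within a library need no scaling between libraries, so they show whether subunits moved together. The log2 ratio of EEF1D over EEF1B2 was higher in both pulldowns than in both inputs with SRSF7, RNPS1, SRSF1, LMNA and GFP, and lower in 7 constructs, SAM68, PML, SP100, SMN2, WRAP53, NPAT and FLAG. It overlapped in FBL and NLS. With SRSF7 the ratio was 1.08 and 2.16 in the pulldowns and -0.01 and 0.14 in the inputs, and with SP100 it was -0.53 and -0.26 in the pulldowns and 0.60 and 0.88 in the inputs. The subunits of the exchange complex thus moved apart in opposite directions in these 2 constructs. The ratio of EEF2 over EEF1A1 was lower in the pulldowns of 10 constructs, higher with SRSF1 and overlapping in RNPS1, FBL and LMNA. The largest shift was with PML, from 0.24 and 0.33 in the inputs to -1.13 and -1.18 in the pulldowns. EEF1A1 is the denominator of this ratio and was highest in the PML pulldowns, so the 2 observations are not independent. With NLS the ratio went from 0.60 and 0.63 in the inputs to -0.66 and -0.64 in the pulldowns. EEF1A1 itself was not called there (-0.16). These ratios are descriptions with 2 libraries a group, and no test was run on them.

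TPT1, which encodes a small abundant protein that binds elongation factor 1, had nearly the same pattern as EEF1B2. It ranged from 326 to 1017 CPM in the inputs and from 250 to 1024 CPM in the pulldowns. SRSF1 pulldowns held 408 and 417 CPM against inputs of 1017 and 993 CPM. The difference was -1.29 ± 0.20 (SE, n = 2 and 2; edgeR adjusted p = 1.26e-06), well outside the spread of either pair. Against all inputs of set II, of which the SRSF1 inputs were the highest, it was -0.84, still called. LMNA (-1.26), RNPS1 (-0.92), GFP (-0.80) and SRSF7 (-0.67) were also lower. PML pulldowns held 1016 and 1016 CPM against inputs of 712 and 660 CPM, a rise of 0.57 ± 0.20 (edgeR adjusted p = 0.0326), and SP100 pulldowns held 1024 and 971 CPM against 754 and 557 CPM, a rise of 0.61 ± 0.20 (edgeR adjusted p = 0.0203). With both PML-body baits, both TPT1 pulldowns lay above both inputs. The same held for 34.4% of all genes with PML and 34.2% with SP100. The PML rise was lost without any of the 4 PML libraries (0.51 to 0.64), and the SP100 rise without SP100 input 2 (0.38), SP100 pulldown 1 (0.56) or SP100 pulldown 2 (0.65). The SRSF7 fall was lost without SRSF7 pulldown 1 (-0.44) and with total counts (-0.43), and was -1.09 without SRSF7 pulldown 2. Without LMNA pulldown 2 the LMNA fall was -0.75. In FBL, with no call (-0.04), TPT1 was 0.55 higher without FBL input 2 (adjusted p = 0.0306) and lower against the inputs of set II (-0.71). In NLS, with no call (0.02), it was -0.38 against the inputs of its library set (adjusted p = 0.0498).

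PABPC1, the cytoplasmic protein that coats poly(A) tails, was lower in 8 constructs and higher in 0. At an unadjusted p under 0.05 it was also higher in 0 constructs, and DESeq2 likewise called 0. It ranged from 335 to 919 CPM in the inputs and from 222 to 751 CPM in the pulldowns. SRSF7 pulldowns held 222 and 283 CPM against inputs of 762 and 745 CPM. The difference was -1.58 ± 0.19 (SE, n = 2 and 2; edgeR adjusted p = 1.62e-08), the lowest value of any member with SRSF7. SRSF1 (-1.55), LMNA (-1.31), GFP (-1.19), NLS (-1.04) and RNPS1 (-0.93) followed. The SRSF1 inputs held the highest PABPC1 of all inputs (919 and 877 CPM), and against all inputs of set II the SRSF1 value was -1.21, still called. SAM68 stood at the other end, with pulldowns of 751 and 742 CPM and inputs of 744 and 720 CPM (0.03 ± 0.19). NPAT (-0.52) and FBL (-0.46, edgeR adjusted p = 0.0477) were the weakest calls. FBL libraries overlapped, with pulldowns of 375 and 376 CPM and inputs of 335 and 698 CPM. The FBL value was 0.24 without FBL input 2, -0.88 without FBL input 1 and -0.93 against the inputs of set II, and the call was lost without FBL pulldown 1 (-0.44) or 2 (-0.45), with DESeq2 (-0.40) and with total counts (-0.30). The NPAT call was lost without NPAT input 2 (-0.26) or NPAT pulldown 1 (-0.26), and was -0.87 against the inputs of set II. Against those inputs PABPC1 was also called lower with SP100 (-0.69), PML (-0.57), FLAG (-0.50) and WRAP53.

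EIF4B, which stimulates the RNA helicase EIF4A during initiation, was high near SAM68. SAM68 pulldowns held 893 and 868 CPM, the highest of all 56 libraries, against inputs of 508 and 480 CPM. The rise was 0.83 ± 0.12, to 1.78 times the input (SE, n = 2 and 2; edgeR adjusted p = 3.4e-07). SMN2 pulldowns (587 and 702 CPM) were also above their inputs (494 and 484 CPM), by 0.40 ± 0.12 (edgeR adjusted p = 0.0198). EIF4B fell with LMNA (-1.05), GFP (-0.91), SRSF7 (-0.76), SRSF1 (-0.73) and RNPS1 (-0.59), the same constructs in which EEF1B2 and TPT1 fell. The SMN2 rise was lost without SMN2 input 1 (0.43), SMN2 input 2 (0.39) or SMN2 pulldown 2 (0.26) and was 0.26 against the inputs of set II (adjusted p = 0.0171). With SRSF1 the fall was -0.36 against the inputs of its set and -0.43 with total counts, both still called.

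NAP1L1, a histone chaperone, was called against its own input in 3 constructs. It ranged from 209 to 562 CPM in the inputs and from 266 to 886 CPM in the pulldowns, and 11 of its 14 comparisons were not called. SAM68 pulldowns held 869 and 886 CPM against inputs of 473 and 468 CPM. The rise was 0.90 ± 0.21, to 1.86 times the input (SE, n = 2 and 2; edgeR adjusted p = 0.000419), again with both pulldowns above every other library. It fell with SRSF7 (-0.82 ± 0.21), where pulldowns held 266 and 329 CPM and both inputs 523 CPM, and with SRSF1 (-0.73 ± 0.21). LMNA (-0.08) and GFP (-0.11) overlapped their inputs, unlike the other members. The SRSF7 fall was lost without SRSF7 pulldown 1 (-0.71, adjusted p = 0.051) and the SRSF1 fall with total counts (-0.42). FBL input 1 (209 CPM) and NPAT input 1 (233 CPM) were its lowest libraries, and NAP1L1 was called higher in FBL (1.11) and NPAT (adjusted p = 0.000616) when the other input of that construct was left out, against 0.30 and 0.44 with both. The NPAT value was also called with DESeq2 (0.52) and total counts (0.58), and was 0.05 without NPAT input 1. With PML, NAP1L1 was not called (0.47), nor in 7 of 13 alternatives. It was called higher there with DESeq2 size factors (0.54), total counts (0.54) and a mean of 5 CPM (0.52), among others. SP100 (0.37) was called with a mean of 5 CPM (0.48). Without both FBL input 1 and NPAT input 1, NAP1L1 was called higher with PML, SP100 and SMN2.

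**Figure D3:**
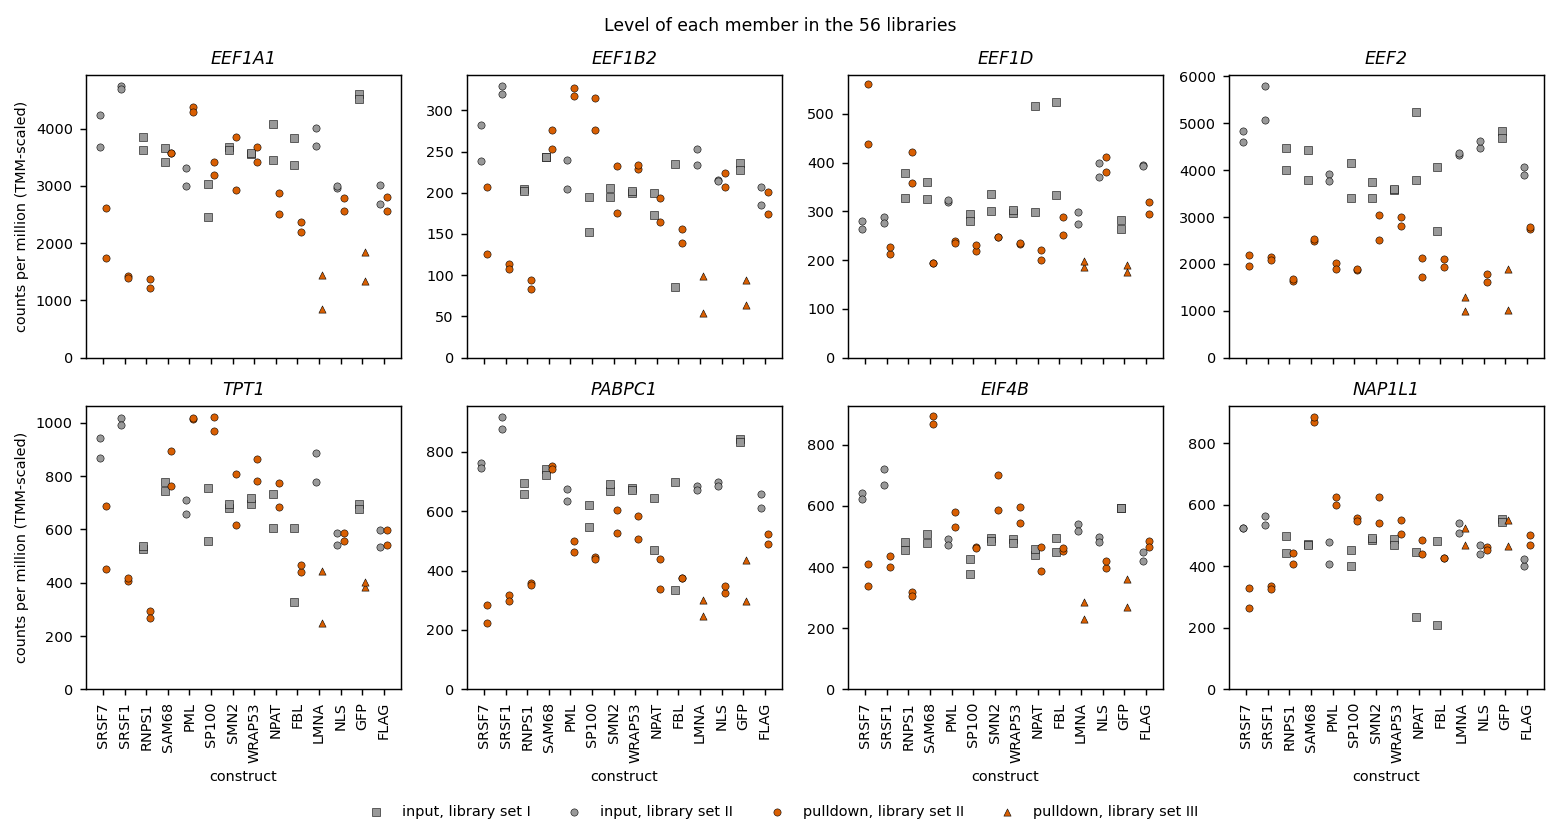
CPM (vertical axis, scaled by TMM) of the 8 tested members in each of the 56 libraries, by construct (horizontal axis). Grey symbols are inputs and orange symbols pulldowns, with squares, circles and triangles for library sets I, II and III; every EEF2 pulldown lies below the inputs of its construct, and the SAM68 pulldowns are the highest of all libraries for EIF4B and NAP1L1.

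Each construct was then set against NLS, the reference sent to the nucleus as a whole, as the difference of the 2 enrichments. These 13 comparisons share the 4 NLS libraries. Of 104 pairs, 29 differed, 21 lower and 8 higher than NLS. Pulldowns set directly against NLS pulldowns, in the 11 constructs of the same library set and without inputs, gave 34 calls of 88, of which 19 were higher and 15 lower, so the balance of directions depends on this choice. SAM68 had 4 members higher (12% of all genes) and 1 lower (7.8%). SRSF7 had 1 higher (11.7%) and 3 lower (7.01%). SRSF1 had 4 lower (8.64%) and 0 higher (13.6%), RNPS1 3 lower (2.34%) and 0 higher (4.71%), LMNA 4 lower (8.56%) and 0 higher (7.14%), and GFP 5 lower (10.4%) and 0 higher (7.57%). SMN2 had 2 higher (4.23%) and 0 lower (2.1%), WRAP53 1 higher (5.22%) and 0 lower (3.06%), and NPAT 1 lower (3.05%) and 0 higher (1.16%). No member was called by edgeR in PML (0.0633% of all genes higher and 0.253% lower), SP100 (0.494% and 1.21%), FBL (0.422% and 0.262%) or FLAG (2.04% and 0.65%). In the 9 constructs with 0 members called higher, 12 had an unadjusted p under 0.05 and DESeq2 called 4, and in the 6 with 0 called lower the numbers were 3 and 0.

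**Figure D4:**
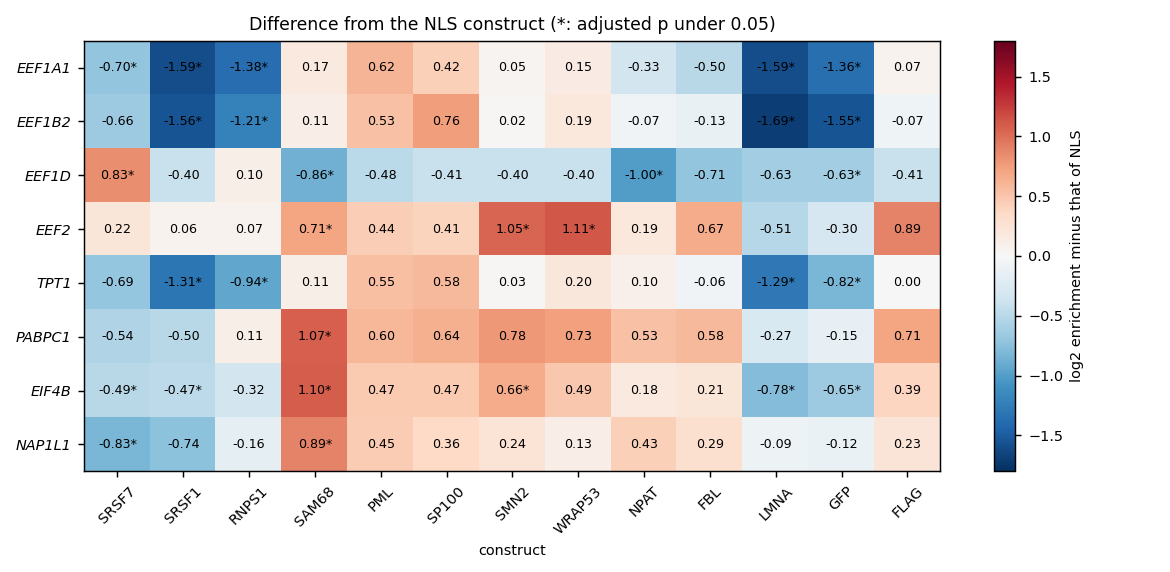
Difference between each construct's log2 enrichment (columns) and that of NLS for the 8 tested members (rows), with a star where the adjusted p is under 0.05. EIF4B with SAM68 (1.10) and PABPC1 with SAM68 (1.07) are among the highest values, and EEF1A1, EEF1B2 and TPT1 are lowest with SRSF1, RNPS1, LMNA and GFP.

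EEF1A1, EEF1B2 and TPT1 were lower than NLS with SRSF1 (-1.59, -1.56 and -1.31), RNPS1 (-1.38, -1.21 and -0.94), LMNA (-1.59, -1.69 and -1.29) and GFP (-1.36, -1.55 and -0.82), and EEF1A1 also with SRSF7 (-0.70). EEF2 and PABPC1, which fell in the NLS pulldown itself, were lower than NLS in 0 constructs by edgeR and by DESeq2, and at an unadjusted p under 0.05 EEF2 was lower in 0 and PABPC1 in 1. EEF2 was higher with WRAP53 (1.11 ± 0.26), SMN2 (1.05 ± 0.26) and, with a call lost on leaving out any of the 8 libraries of that comparison (0.58 to 0.76), SAM68 (0.71 ± 0.26), and PABPC1 with SAM68 (1.07 ± 0.26, edgeR adjusted p = 0.00235). EIF4B was higher with SAM68 (1.10 ± 0.17, edgeR adjusted p = 3.87e-06) and SMN2 (0.66) and lower with LMNA (-0.78), GFP (-0.65), SRSF7 (-0.49) and SRSF1 (-0.47). NAP1L1 was higher with SAM68 (0.89) and lower with SRSF7 (-0.83). EEF1D was higher with SRSF7 (0.83 ± 0.23, edgeR adjusted p = 0.00769) and lower with NPAT (-1.0), SAM68 (-0.86) and GFP (-0.63).

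Of these 29 calls, 10 held under every alternative run. They were EEF1A1 with SRSF1, RNPS1, LMNA and GFP, EEF1B2 with SRSF1, LMNA and GFP, TPT1 with LMNA, and EEF1D and EIF4B with SAM68. The count of calls was 17 and 15 without NLS input 1 and 2, and 19 without either NLS pulldown. With total counts, under which the SAM68 median over all genes moved by -0.43 against NLS, EEF2 (0.28), PABPC1 (0.64) and NAP1L1 (0.45) were no longer called with SAM68, and EIF4B (0.66) was. When pulldowns were compared directly with NLS pulldowns of the same library set, EEF1D with SRSF7 was 0.33 and EIF4B with SRSF1 was 0.04, neither called. TPT1 with SRSF1 (-0.47), EEF1A1 with SRSF7 (-0.29) and EIF4B with SRSF7 (-0.13) lost their calls as well, while EEF1A1 (-0.92) and EEF1B2 (-0.96) with SRSF1 were smaller and still called. Among pairs that gained a call were TPT1 with PML (0.83) and SP100 (0.80), and EEF1D with PML (-0.74) and SP100 (-0.82). LMNA and GFP could not be compared in this way.

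Poly(A) selection raised 7 of the 8 tested members in SRSF7 pulldown RNA, against 27.3% of the 18641 genes tested in the second table, and lowered 0 (26.5% of all genes). At an unadjusted p under 0.05 edgeR had 8 higher and 0 lower, and DESeq2 called 7 and 0. Ribosome-depleted libraries held 65.5 and 65.3 CPM of EEF1B2 and poly(A) libraries 139 and 158 CPM. EEF1B2 rose by 1.18 ± 0.09 (SE, n = 2 and 2; edgeR adjusted p = 1.89e-11), more than any other member. TPT1 held 321 and 329 CPM in ribosome-depleted and 668 and 755 CPM in poly(A) libraries (1.13 ± 0.09). EEF1A1 rose by 0.86 ± 0.10, EEF1D by 0.68 ± 0.09, and PABPC1 and EEF2 by 0.61 each. EIF4B rose by 0.27 ± 0.08 (edgeR adjusted p = 0.00936), and NAP1L1 gave 0.20 ± 0.09 (edgeR adjusted p = 0.0817). The member median was 0.65 and the median over all genes 0.03. The EIF4B call was lost without poly(A) library 1 (0.27) or 2 (0.27) or ribosome-depleted library 2 (0.20), and NAP1L1 was called with total counts (0.33) and without ribosome-depleted library 2 (0.27).

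**Figure D5:**
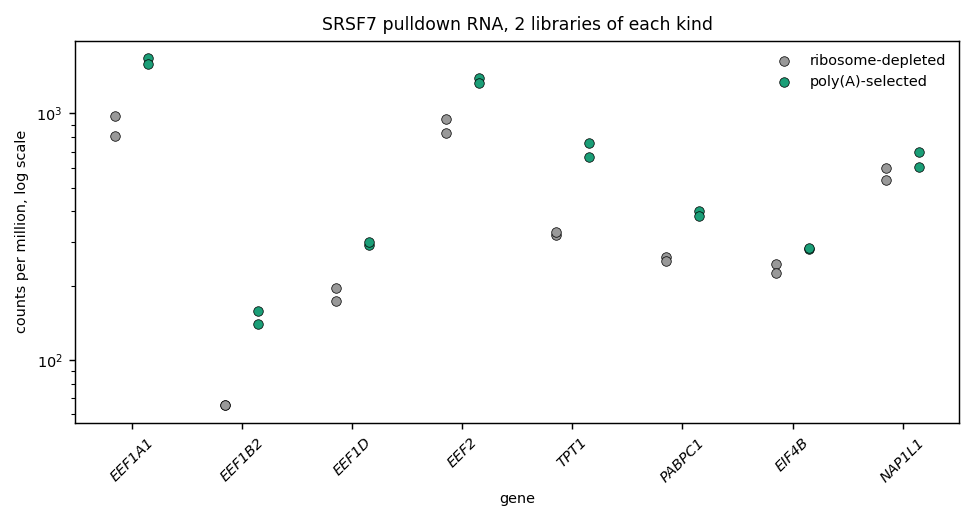
CPM (vertical axis, log scale) of the 8 tested members (horizontal axis) in SRSF7 pulldown RNA, 2 ribosome-depleted libraries in grey and 2 poly(A)-selected libraries in green. EEF1B2 goes from 65.5 and 65.3 to 139 and 158, and the 2 kinds of library are closest for EIF4B and NAP1L1.

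The other genes of the pathway were read from fixed lists. Over all genes, the shares called higher and lower were 20.5% and 19.8% with SRSF7, 28.5% and 22.5% with SRSF1, 16.6% and 17.9% with RNPS1, 28.1% and 27.6% with LMNA, and 26.4% and 27% with GFP. They were 21.1% and 22% with SAM68, 9.92% and 15.1% with PML, 11.4% and 16.5% with SP100, and 27.3% and 26.5% with poly(A) selection. Of 72 tested cytosolic ribosomal protein mRNAs, the largest family of TOP mRNAs, 70 fell with LMNA, 70 with GFP, 69 with RNPS1, 68 with SRSF1 and 48 with SRSF7, with medians of -1.50, -1.61, -1.20, -1.20 and -0.66. With PML 14 rose and 4 fell (median 0.27) and with SP100 17 rose and 4 fell (0.30), RPL23 among those that rose (1.12 and 1.38) and RPS2 among those that fell (-0.68 and -0.90). RPL22 went against the list with SRSF1, where it rose by 1.93 ± 0.17. Poly(A) selection raised 71 of the 72 and lowered 0 (median 1.17), RPL27 most clearly (2.09).

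Of 18 other TOP mRNAs tested, 13 fell and 3 rose with SRSF1 (median -0.92), 12 fell and 2 rose with LMNA (-0.82), 12 fell with GFP (-0.84), 10 fell with SRSF7 (-0.54) and 9 fell and 4 rose with RNPS1 (-0.56). FAU, which encodes a ribosomal protein fused to a ubiquitin-like protein, fell with SRSF1 (-2.13), LMNA (-1.8) and RNPS1 (-1.59), whereas EIF4A2, a helicase of initiation, rose with RNPS1 (1.42) and PML (0.88). With PML 8 rose and 1 fell and with SP100 8 rose, among them the host gene GAS5 (0.49 and 0.52) and EIF3L (0.40 and 0.50). Poly(A) selection raised 16 of 18 (median 0.68), NACA by 1.60.

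Other elongation and termination genes were mixed, and the 5 of 23 that rose with SRSF7 are close to the 20.5% of all genes. Of 23 tested, 13 fell and 5 rose with SRSF7 (median -0.48), 13 fell and 4 rose with LMNA (-0.52), and 8 rose and 8 fell with SAM68 (-0.03). EEF1A2, the second gene for elongation factor 1 alpha, fell with SRSF7 (-1.20), SAM68 (-1.54), PML (-1.57) and LMNA (-2.17), whereas EEF1A1 was at 0.02 with SAM68 and 0.46 with PML. The termination factor GSPT1 fell with SRSF7 (-1.08) and SRSF1 (-1.37) and rose with SAM68 (1.47), where the recycling factor ABCE1 (2.31) and the elongation factor EIF5A2 (2.56) rose as well. EIF5A fell with SRSF7 (-1.42) and rose with poly(A) selection (1.01).

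Among 27 initiation factors tested, 20 fell and 1 rose with LMNA (median -0.78), 17 fell and 3 rose with GFP (-0.83), 15 fell and 5 rose with SRSF1 (-0.36), and 7 fell and 7 rose with SAM68 (0.04). EIF4G1, the scaffold of the cap-binding complex, fell with SRSF7 (-0.99), SAM68 (-0.78), PML (-0.97) and LMNA (-1.28), while EIF2S1 (1.66), EIF3J (1.22) and EIF5 (1.13) rose with SAM68. EIF2B5, a subunit of the exchange factor for initiation factor 2, rose with RNPS1 (1.36), SRSF1 (1.03) and SRSF7 (0.59). Of 18 regulators of TOP mRNAs, 9 fell and 3 rose with SRSF7 (-0.33) and 8 rose and 7 fell with SAM68 (0.07). LARP1, which binds the motif, fell with SRSF7 (-1.05), SRSF1 (-1.0), RNPS1 (-1.0), PML (-0.64) and SP100 (-0.64), and its relative LARP4, which binds poly(A), rose with SAM68 (2.52) and fell with SRSF1 (-1.13).

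Across the 14 constructs the enrichments of EEF1A1, EEF1B2 and TPT1 ran nearly together (Pearson r of 0.97 to 0.98), and PABPC1 ran with EIF4B (0.93). EEF1D did not run with them, with r from -0.69 for NAP1L1 to -0.10 for EEF2. The 14 points share the fit and its scaling, each rests on 4 libraries, and the values are descriptions. Among 9303 other genes with a mean of at least 20 CPM, those most like the mean of the 8 tested members were ATP5F1B (r = 0.99), XRCC6 (0.99), CCT3 (0.99), BIRC5 (0.99), MRPS18B (0.99), TUBA1A (0.99), CERS2 (0.99) and PGD (0.99). The median over 71 ribosomal protein genes was 0.91 and over all candidates 0.17.

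Reads of near-identical pseudogenes could be split from their parent by counting, so the pseudogene rows were counted. For the 7 tested members with at least 2 named pseudogene rows, these held at most 1.66% of the reads of member plus pseudogenes in any library. EEF1A1 has 39 such rows, which held 0.149% to 0.753%, led by EEF1A1P5 (35 to 865 reads) and EEF1A1P9 (4 to 94). EIF4B rows held 0.208% to 1.26%, led by EIF4BP3 (9 to 213 reads) and EIF4BP7 (0 to 14). The leading rows of the others were EEF1B2P3 (at most 26 reads) and EEF1B2P6 (19), EEF1DP2 (62) and EEF1DP4 (10), TPT1P9 (27) and TPT1P4 (8), PABPC1P4 (9) and PABPC1P7 (3), and NAP1L1P3 (23) and NAP1L1P1 (9). Adding the pseudogene reads to their parents left each of the 224 calls on its side of the threshold. With so few reads in these rows little could move, and reads counted at neither parent nor pseudogene are not covered. For EEF1A1 the median share was 0.251% in set I, 0.355% and 0.377% in the inputs and pulldowns of set II, and 0.635% in set III.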

How the data were processed

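The authors deposited raw read counts per gene, whole numbers with no normalization, for 56 libraries in 1 table and 4 in another. Per the submitters' processing notes, STAR 2.7.4a, featureCounts and hg38 were used; the featureCounts version, gene annotation and strand setting were not given in the sources used here, so reads of overlapping and antisense genes cannot be told apart. Of 60591 rows, 1 with a cell that is no number was left out.

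Counts were filtered with filterByExpr and scaled by TMM in edgeR 4.0.16 (R 4.3.3). A quasi-likelihood model with 1 mean per construct and fraction was fitted to all 56 libraries (28 residual and a median of 9.64 prior degrees of freedom). The 4 libraries of the other table had a fit of their own (2 residual, 22.8 prior). Tests were two-sided, with Benjamini-Hochberg adjustment over all genes and a threshold of 0.05. Errors are standard errors taken from the test statistic, with a spread shared by all groups of a fit. They are not the spread of the libraries compared. CPM is TMM-scaled.

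Members and lists were chosen with earlier results of these data known. Named genes are the members, their 2 leading pseudogene rows, up to 4 genes of each list with the smallest adjusted p in a comparison, the 8 most like the members, bait genes and the 2 set markers. In the ribosomal protein list 77 genes were listed and 72 tested. The 2 GFP inputs were closest (chi-square per degree of freedom 1.298) and were kept apart, since the sampling noise alone gives 1. Alternatives were DESeq2 1.42.0, its size factors, total counts, other filters, a replicate block, leaving out each library, pseudogenes added to parents and comparisons within a library set. The fit was tested on simulated data. Too few reads for a test, at most 4 per library, were counted only for EEF1G, and the cause was not tested. Every other member had at least 1537 reads.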

Additional observations from a re-analysis of the deposited data

Results flagged for a closer look

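For 8 members the pulldown over input of some constructs differed from that of NLS by a test of the difference itself (edgeR's quasi-likelihood interaction, adjusted p under 0.05, 13 constructs, which share the NLS libraries). EIF4B differed in 6 constructs and EEF1A1 in 5. EEF1B2, EEF1D and TPT1 each differed in 4. EEF2 differed in 3, NAP1L1 in 2 and PABPC1 in 1. Groups of 2 libraries are too small for a search for single outlying libraries.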

How the results depend on the processing

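Of 57 calls against own input, 37 of 49 lower and 3 of 8 higher (EEF1D with SRSF7, EIF4B and NAP1L1 with SAM68) held under every alternative run. For LMNA and GFP, no comparison within a library set could be run. Against NLS, 9 of 21 lower and 1 of 8 higher held, and with poly(A) selection 6 of 7. Leaving out 1 library gave 54 to 57 calls against own input, 15 to 34 against NLS and 6 or 7 with poly(A) selection. Of 1312 such values, 1165 kept their call, 129 lost it and 14 gained one, where a sign that turned in a value never called counts as kept. Another 4 reversed, all without FBL input 2: EEF1B2 against own input (0.86) and NLS (0.87), TPT1 (0.55) and PABPC1 (0.24) against own input. Without FBL input 1 these 4 values were -0.66, -0.67, -0.40 and -0.88, and the 2 FBL inputs differed from each other as given for each gene. Within library sets, TPT1 with NLS reversed against own inputs (-0.38), as did EIF4B with SRSF1 against NLS pulldowns (0.036); the cause was not tested. Only baits in 1 library set gave 21 calls of 40 pairs against own input and 8 of 32 against NLS, fewer because fewer pairs were tested. Leaving out FBL input 1 and NPAT input 1 together was chosen after seeing the data. This setting gave 49 calls against NLS (21 higher) and 73 against own input (16 higher, 57 lower). In the main fit these 2 libraries enter the spread shared by all groups, and so the tests of every construct. By the chi-square measure given above for the GFP inputs, the 2 FBL inputs were least alike of all groups (150.6). The NPAT inputs (92.99) and GFP pulldowns (54) came next. The cause of the added calls was not tested. Total counts moved the median over all genes by -0.43 to 0.30, and neither they nor DESeq2 size factors reversed a call. Same-numbered pulldowns and inputs deviated together, with a correlation over 0.1 (12231 genes), in 7 of 14 constructs (-0.22 to 0.46), so the numbers were not taken as pairs; the replicate block gave 57 calls against own input, 28 against NLS and 8 with poly(A) selection. It ended the calls of EEF1A1 with PML (0.46) and PABPC1 with FBL (-0.37) against own input, and of EEF1A1 (-0.73) and EIF4B (-0.50) with SRSF7, EIF4B with SRSF1 (-0.47) and EEF2 with SAM68 (0.71) against NLS, and 6 others gained one.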
